A study of Mus musculus with 11 samples.

Results

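Immediate early response genes are transcribed within minutes of a stimulus and need no new protein synthesis. The 10 genes described here were chosen by name: Fos, Fosb, Jun, Junb, Egr1, Atf3, Ier2, Ier3, Dusp1 and Nr4a1. They are 10 of the 18193 genes read by the arrays, and 11 probe sets of 45101 read them. Jun had 2 probe sets and every other gene had 1, and the one with the higher mean over the 11 arrays stood for the gene. The arrays held cRNA from mouse kidneys at embryonic day 17. The titles form 3 series: E17R2 with 3 Robo2 homozygous and 3 wild-type arrays, R2E17 with 1 Robo2 homozygous and 1 wild-type array, and R2NB with 3 Robo2 homozygous arrays. The sources used here do not give the kind of Robo2 allele, the strain, any pooling or the meaning of NB. Nothing in the labels says that replicates came from separate animals, so p-values measure only how far these samples spread, and part of that may be technical.

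In most tissues these genes are switched on by growth factors, stretch, injury or calcium signals. MAP kinases phosphorylate ternary complex factors that sit with serum response factor on CArG boxes, and cAMP-responsive factors act on cAMP response elements. The products include the AP-1 proteins of the Fos and Jun families, zinc-finger and nuclear-receptor transcription factors, and a phosphatase that switches MAP kinases off again. Cutting, warming or dissociating a tissue before RNA is extracted is a known stimulus for the class.

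Promoter sequence is shown for 4 genes. Fos varied most between the E17R2 arrays, Ier3 varied with it, Atf3 was the only gene whose genotypes did not overlap, and Dusp1 had the largest difference in the R2E17 pair. Each sequence is the 250 bases before the annotated start, from RefSeq on build GRCm38.p6, written 5′ to 3′ on the gene's strand. Capitals mark matches to TGACGT, the core of the cAMP response element, and to TATAAA, each searched on both strands.
Fos, chr12:85473640-85473889, plus strand: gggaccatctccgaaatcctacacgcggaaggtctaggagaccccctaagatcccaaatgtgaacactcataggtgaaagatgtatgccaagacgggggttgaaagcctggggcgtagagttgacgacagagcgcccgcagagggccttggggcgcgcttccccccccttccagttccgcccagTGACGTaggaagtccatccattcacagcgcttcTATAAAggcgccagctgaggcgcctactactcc
Ier3, chr17:35821463-35821712, plus strand: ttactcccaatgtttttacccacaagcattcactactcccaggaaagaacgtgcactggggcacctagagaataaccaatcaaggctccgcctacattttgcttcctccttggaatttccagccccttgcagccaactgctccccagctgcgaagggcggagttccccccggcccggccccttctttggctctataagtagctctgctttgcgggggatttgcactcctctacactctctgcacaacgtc
Atf3, chr1:191183334-191183583, minus strand: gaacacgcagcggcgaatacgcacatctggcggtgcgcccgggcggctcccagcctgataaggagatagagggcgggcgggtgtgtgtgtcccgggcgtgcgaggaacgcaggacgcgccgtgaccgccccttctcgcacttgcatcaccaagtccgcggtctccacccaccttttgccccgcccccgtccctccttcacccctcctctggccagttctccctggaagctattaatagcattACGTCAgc
Dusp1, chr17:26508473-26508722, minus strand: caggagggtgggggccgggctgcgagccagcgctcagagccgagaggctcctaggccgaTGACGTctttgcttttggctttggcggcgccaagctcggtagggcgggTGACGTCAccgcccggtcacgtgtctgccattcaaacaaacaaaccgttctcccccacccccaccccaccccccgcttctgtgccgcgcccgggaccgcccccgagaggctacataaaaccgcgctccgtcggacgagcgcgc
The Fos window held TATAAA 33 to 28 bases before the start and TGACGT 66 to 61 bases before it. In Atf3 a TGACGT match lay 8 to 3 bases before the start. Dusp1 held TGACGT 191 to 186 bases before the start, and again 143 to 138 bases before it as part of the palindrome TGACGTCA, which holds TGACGT on both strands. Neither pattern was found in the Ier3 window. Of the 8 genes searched, which leave out Egr1 and Ier2, 3 held TGACGT (Fos, Atf3 and Dusp1), as did 6.47% of 32851 promoter windows of the same length. TGACGTCA was found in 1 of the 8, against 1.55% of the windows, and TATAAA in 1 of the 8, against 12.4%. GGGCGG, the GC box, was found in 7 of the 8, against 32.7% of the windows. The CArG box was found in 0 of the 8 and in 1.47% of the windows, and the AP-1 pattern TGANTCA in 0 of the 8 and in 6.75%. The TGACGT core was added to the search after the sequences were seen. A match is a description of letters in this window, and sites farther upstream were not searched.

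The deposited values fell into 2 sets with different distributions, the 6 E17R2 arrays and the 5 arrays of R2E17 and R2NB, so levels were compared within a set only. Levels are given as relative levels, the log2 intensity minus the median log2 intensity of all genes on that array. Array medians of intensity over all probe sets were 23.4 to 24.6 in the E17R2 arrays and 47.1 to 53.4 in the other set. Robo2, read by 1 dim probe set, had log2 intensities of 2.03, 2.37 and 2.33 in homozygous and 3.13, 3.68 and 3.16 in wild-type E17R2 arrays, and 3.37 in homozygous and 3.96 in wild-type R2E17 arrays. The R2NB arrays read 3.28, 3.86 and 3.99 in replicates 1 to 3. Replicate 1 thus read near the homozygous R2E17 array, whereas replicates 2 and 3 read near the wild-type one. The R2NB arrays are called homozygous here by their labels, which this dim probe set does not settle. The E17R2 difference was -1.08 ± 0.18 (SE; limma adjusted p = 0.840), with all homozygous arrays below all wild-type arrays, and whether the probes lie in an altered part of the gene is not known here. The nephron progenitor factor gene Six2 was high on every array, at log2 intensities up to 10.64. The free-text descriptions speak of human brain, and 6 brain markers were mixed: Neurod6 and Neurod1 were at most 2.27 and 3.13 and Gfap at most 5.40, whereas Mbp was 6.92 to 8.89, Syt1 reached 8.53 and Snap25 reached 7.24. Tissue content differed between arrays of 1 genotype. Homozygous replicate 3 of E17R2 stood apart in smooth muscle: its log2 intensity of the smooth muscle actin gene Actg2 was 12.76, against 5.34 to 7.09 on the other 5 E17R2 arrays. All 8 smooth muscle markers were highest on it, with a summed intensity of 34140 against 3611 to 4949 on the other 5, while 12 measured kidney markers summed to 3956 on it, against 6306 to 7516. Adrenal cortex markers summed to 1029, 216 and 171 in homozygous and 3427, 2874 and 225 in wild-type E17R2 arrays. Skeletal muscle markers summed to 1580, 213 and 9052 in homozygous and 459, 445 and 5221 in wild-type arrays, and liver markers were highest in wild-type replicate 3, at 12440 against 1694 to 6400 on the other 5. The part of these tissues in the results was not tested. In bulk tissue, fewer cells of a type and less RNA per cell cannot be told apart.

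**Figure D1:**
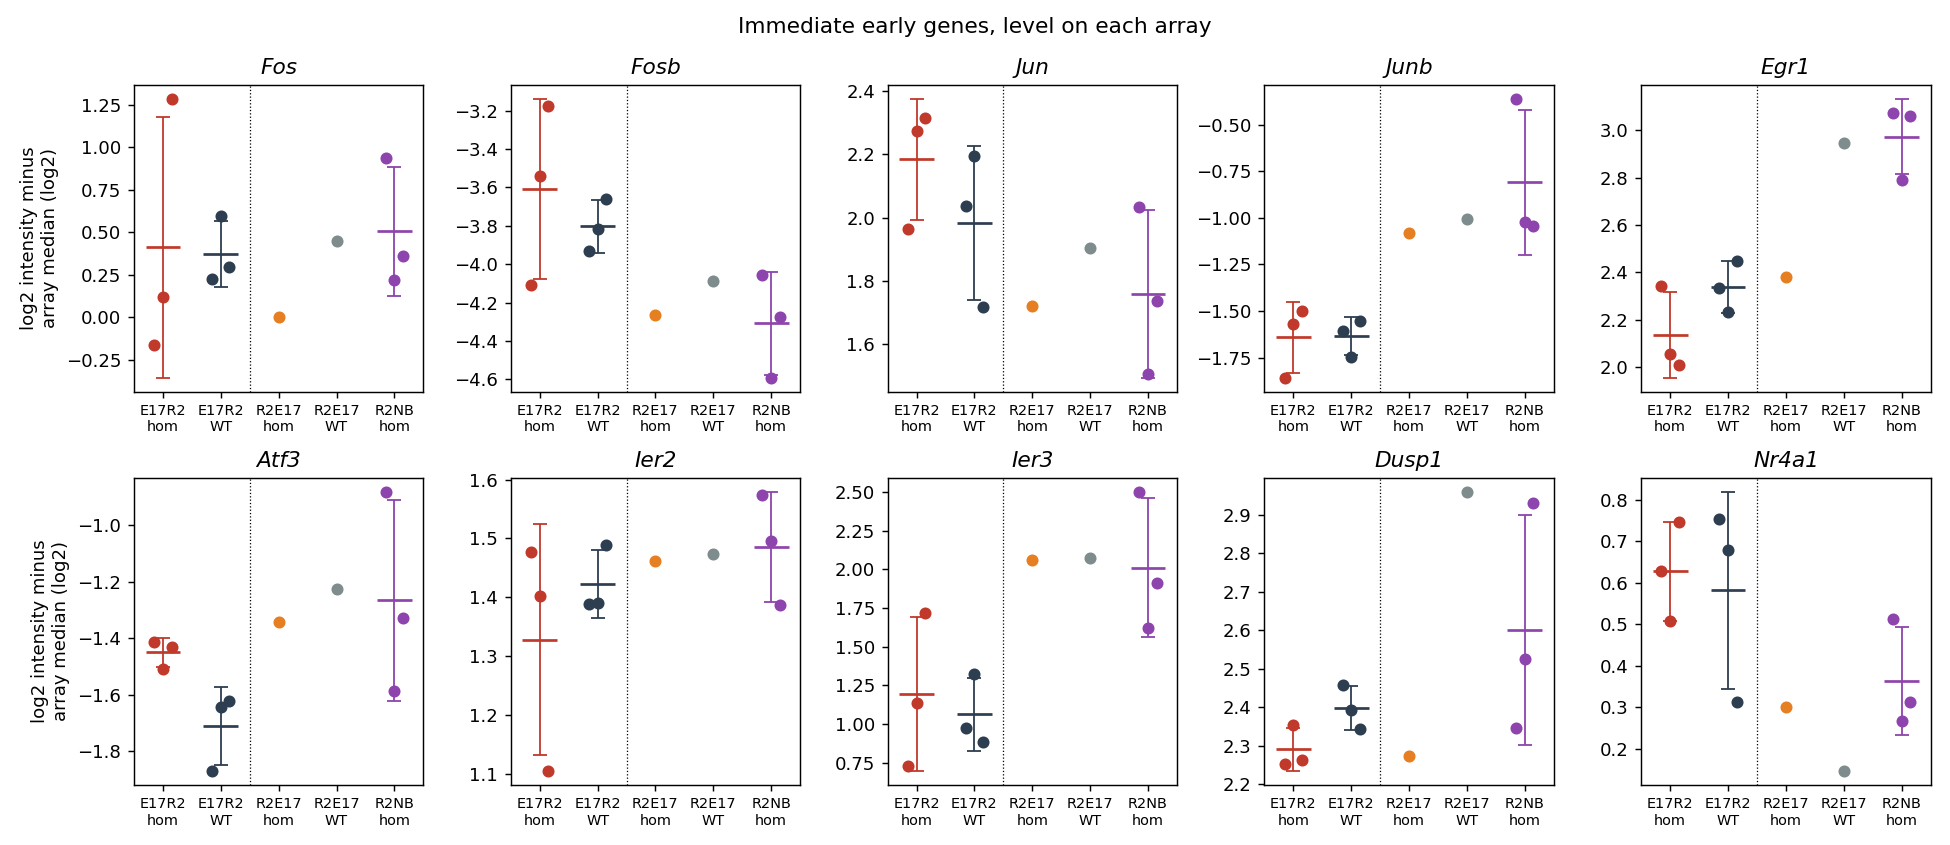
Relative level of each gene (log2 intensity minus the array median, vertical axes that differ between panels) on all 11 arrays, with each point 1 array, horizontal lines the group means and bars the SD of groups of 3. The dotted line separates the 2 sets of arrays, and Fos in homozygous E17R2 arrays spans -0.16 to 1.28, whereas wild-type arrays span 0.23 to 0.59.

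Fos spread most of the 10 genes in the E17R2 series, and homozygous replicate 3 was the highest array for both Fos family genes. Fos, the partner that pairs with Jun proteins to form AP-1, had relative levels of -0.16, 0.12 and 1.28 in homozygous replicates 1 to 3, against 0.23, 0.59 and 0.29 in wild-type replicates 1 to 3. Homozygous replicates 1 and 2 lay below all wild-type arrays and replicate 3 lay above them. On the log2 intensity scale the homozygous mean was 6.69 ± 0.74 and the wild-type mean 6.68 ± 0.23 (n = 3 each, SD), a difference of 0.01 ± 0.35 (SE; 95% interval -0.84 to 0.85; limma adjusted p = 0.997). The fold between the highest and the lowest of the 6 arrays was 2.65, and the SD of Fos over the 6 arrays was larger than that of 95.5% of genes. With homozygous replicate 3 left out, the Fos difference in limma's fit over the other arrays was -0.41 (limma unadjusted p = 0.0487 and adjusted p = 0.857). Fosb, a Fos paralog with the same partners, had relative levels of -4.11, -3.54 and -3.18 in homozygous and -3.93, -3.81 and -3.66 in wild-type arrays. The same homozygous arrays were lowest and highest as for Fos, and the genotypes overlapped. Its intensities were 4.52 to 8.35 over the 6 arrays, at percentiles 3.2 to 14.4 of the genes on an array, and no detection call was used here, so whether Fosb was above background is not known.

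The Jun family moved less. Jun, the AP-1 subunit that also forms homodimers, had relative levels of 1.97, 2.27 and 2.31 in homozygous arrays and 2.04, 2.19 and 1.72 in wild-type arrays. Homozygous replicates 2 and 3 were above every wild-type array and replicate 1 was below 2 of them. The fitted log2 difference was 0.17 ± 0.16 (SE; 95% interval -0.21 to 0.55; limma adjusted p = 0.867), and the second Jun probe set gave 0.22 ± 0.15. That probe set ranked the arrays differently, with relative levels of 1.84, 2.28 and 2.08 in homozygous and 1.65, 1.97 and 1.82 in wild-type arrays. Junb, a Jun paralog that can restrain Jun, had relative levels of -1.86, -1.57 and -1.50 in homozygous and -1.61, -1.75 and -1.55 in wild-type arrays. Its genotypes overlapped and differed by -0.04 (95% interval -0.31 to 0.23).

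Atf3 was the only member whose homozygous arrays did not overlap the wild-type arrays. Atf3 encodes a stress-induced factor of the ATF/CREB family that can pair with Jun. Its relative levels were -1.41, -1.51 and -1.43 in homozygous and -1.87, -1.64 and -1.62 in wild-type arrays. The log2 means were 4.82 ± 0.04 in homozygous and 4.60 ± 0.16 in wild-type arrays (n = 3 each, SD), a difference of 0.23 ± 0.10 (SE; 95% interval -0.02 to 0.47) that did not pass the test (limma adjusted p = 0.840). Over all genes, 5.05% had all 3 homozygous arrays above all 3 wild-type arrays, so 1 of 10 members is close to that background. In the R2E17 pair the homozygous and wild-type arrays held the same deposited intensity of Atf3, 72.4.

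Of the 2 other transcription factor genes, Egr1 leaned lower in homozygous arrays. Egr1 encodes a zinc-finger factor that is induced through serum response factor. Its relative levels were 2.34, 2.06 and 2.01 in homozygous and 2.33, 2.23 and 2.45 in wild-type arrays, with homozygous replicates 2 and 3 below every wild-type array and replicate 1 among them. The log2 means were 8.41 ± 0.20 in homozygous and 8.65 ± 0.09 in wild-type arrays (n = 3 each, SD), a difference of -0.24 ± 0.12 (SE; 95% interval -0.52 to 0.05; limma adjusted p = 0.840). In the R2E17 pair Egr1 read 956 in the homozygous and 1305 in the wild-type array on the intensity scale, a log2 difference of -0.45 between those arrays. Nr4a1, an orphan nuclear receptor, had relative levels of 0.63, 0.51 and 0.75 in homozygous and 0.75, 0.68 and 0.31 in wild-type arrays. The groups overlapped and the difference was 0.01 (95% interval -0.31 to 0.33).

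The feedback gene and the immediate early response genes of other kinds gave small differences. Dusp1, the phosphatase that inactivates MAP kinases, had relative levels of 2.25, 2.35 and 2.26 in homozygous and 2.46, 2.39 and 2.34 in wild-type arrays. Its 6 arrays lay close together, with a fold of 1.18 between the highest and the lowest and a difference of -0.14 ± 0.08 (SE; 95% interval -0.34 to 0.06; limma adjusted p = 0.840). Ier2, a small nuclear protein gene, had relative levels of 1.48, 1.40 and 1.10 in homozygous and 1.39, 1.39 and 1.49 in wild-type arrays. Homozygous replicate 3, the highest array for Fos, was the lowest for Ier2, and the difference was -0.13 (95% interval -0.43 to 0.17). Ier3, a membrane-associated regulator of cell survival, had relative levels of 0.73, 1.14 and 1.72 in homozygous and 0.97, 1.33 and 0.88 in wild-type arrays. As for Fos, homozygous replicate 1 was the lowest array and replicate 3 the highest, and the difference was 0.10 ± 0.25 (SE; 95% interval -0.50 to 0.70).

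Across the 10 genes the E17R2 comparison asked whether homozygous kidneys differed from wild-type kidneys in this early response. None of the 10 reached 0.05 after Benjamini-Hochberg adjustment of limma's p values, against 0.0% of all genes (0 of 18193). At an unadjusted p under 0.05, 0 of the 10 passed in this fit, against 5.6% of all genes (1019). Of the 10, 6 had a positive difference, against 47.1% of all genes, and their median difference was 0.01 on the log2 scale, against -0.01 over all genes. No member had all homozygous arrays below all wild-type arrays, as did 7.24% of genes. The sign count changed when homozygous replicate 3 was left out: 2 of 10 differences were then positive, those of Jun and Atf3. Fosb, Ier3 and Nr4a1 turned to -0.04, -0.15 and -0.03. The share of all genes with a positive difference in that fit is not given here, so the count has no background. Homozygous replicate 3 carried the smooth muscle transcripts given above, and their part in the result was not tested. Intervals of the 10 differences reached at most 0.85 on either side of 0, so differences of this size in Fos were not detectable with these arrays, whereas for Dusp1 the interval ran only from -0.34 to 0.06. Values here are on the log2 intensity scale, and on the scale of relative levels each difference is higher by 0.035. On the scale of relative levels Atf3 differed by 0.26, with a limma unadjusted p of 0.0319 and adjusted p of 0.800.

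**Figure D2:**
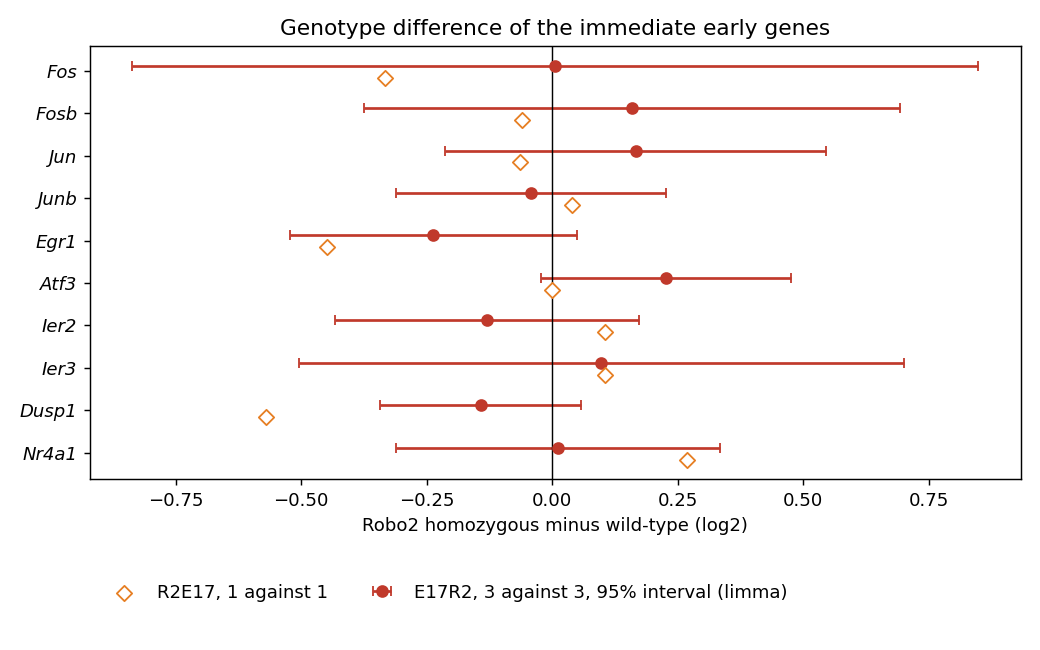
Robo2 homozygous minus wild-type difference of each gene on the log2 scale (horizontal axis), as the E17R2 fit with its 95% interval (filled points) and as the single R2E17 pair (open diamonds). All 10 intervals include 0, and Dusp1 (-0.57) and Egr1 (-0.45) are the lowest diamonds.

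The R2E17 pair holds 1 array per genotype and so has no replicate check. Dusp1 was the only member past a log2 difference of 0.5, with an intensity of 887 in the homozygous and 1317 in the wild-type array (-0.57), and 0 of 10 were higher by that much. Over all genes, 3.7% were lower and 8.0% higher by over 0.5. Fos read 184 in the homozygous and 231 in the wild-type array (-0.33), and Nr4a1 read 226 and 188, a difference of 0.27. The main Jun probe set read 606 in the homozygous and 634 in the wild-type array (-0.07), whereas the second read 535 and 825 (-0.62). The wild-type array of this pair had the largest 3′ minus 5′ log2 values of the control transcripts, 0.70 for Gapdh and 1.12 for Actb. The homozygous array had 0.08 and 0.57, and the part of RNA quality in these differences was not tested. Tissue content of the pair differed as well. Skeletal muscle markers summed to 7240 in the homozygous and 330 in the wild-type array, and smooth muscle markers to 9448 and 11578. Of 5 liver markers, 3 were lower and 1 higher by over 0.5 in the homozygous array. Kidney markers were closer, at 25435 and 26383, as were adrenal cortex markers, at 303 and 309. The part of these tissues in the differences was not tested. On the log2 intensity scale, 4 of the 10 members had the same sign in both title series (Egr1, Ier3, Dusp1 and Nr4a1), against 39.7% of all genes. On the scale of relative levels 5 did (Junb, Egr1, Ier2, Dusp1 and Nr4a1), against 41.1%, since Ier3 turned negative in the pair, as did Junb and Ier2. The difference between the 2 series' genotype differences passed for 0 of 10 members in a limma interaction contrast, against 0.0165% of genes, and at an unadjusted p under 0.05 for 0 of 10 against 11.1%. The largest such difference was that of Dusp1, 0.43 (95% interval -0.22 to 1.07; limma adjusted p = 0.646).

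In the set of 5 arrays most members were highest in R2NB replicate 1. Fos had relative levels of 0.94, 0.22 and 0.36 in R2NB replicates 1 to 3, and Junb had -0.36, -1.02 and -1.04. Both were higher in replicate 1 than in replicates 2 and 3, and also than in the R2E17 arrays, where Junb had intensities of 86.8 in the homozygous and 84.5 in the wild-type array. Ier3 read 2.50, 1.62 and 1.91 in the R2NB arrays, against 2.06 in the R2E17 homozygous and 2.07 in the R2E17 wild-type array. Atf3 read -0.88, -1.59 and -1.33 in the R2NB arrays, against -1.34 in the homozygous and -1.23 in the wild-type R2E17 array. On the log2 intensity scale 8 of 10 members were highest in R2NB replicate 1, where 26.0% of all genes were highest. On the scale of relative levels 9 of 10 were, and the share of all genes on that scale is not given here. Egr1 and Dusp1 were the exceptions on the first scale. Egr1 had intensities of 1506, 1240 and 1516 in the R2NB arrays, and Dusp1 had 912, 1034 and 1386. For Dusp1, replicate 1 was the lowest of the R2NB arrays. These counts used the main Jun probe set. The second Jun probe set was highest in the wild-type R2E17 array, at a log2 intensity of 9.69. It read 9.41 in R2NB replicate 1 and 9.61 in R2NB replicate 3.

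Of 64 other immediate early genes, 28 were highest in R2NB replicate 1, or 43.8%, against 26.0% of all genes. This array had the lowest 3′ minus 5′ log2 values of the 5, with 0.03 for Gapdh and 0.54 for Actb, against 0.18 and 0.72 in replicate 2 and 0.22 and 0.75 in replicate 3. The R2NB arrays differed widely in markers of other tissues. In replicates 1 to 3, summed intensities were 287, 8752 and 332 for adrenal cortex, 6738, 35914 and 5032 for liver, 228, 2345 and 5313 for chromaffin cells and neurons, and 229, 213 and 8142 for skeletal muscle. Smooth muscle sums were closer, at 12940, 12286 and 14805. Of the marker lists, 3 of 12 kidney, 2 of 6 brain, 1 of 7 endothelial and 1 of 8 smooth muscle genes were highest in replicate 1, and no adrenal, liver, chromaffin, skeletal muscle, macrophage or erythroid marker was. The part of these tissues in the order of the arrays was not tested. The sources used here say nothing of handling array by array, and its part was not tested. In this set, 44.0% of genes held a value shared exactly by 2 or more arrays, to 4 decimals, and so did 5 of 10 members (Jun, Junb, Atf3, Ier2 and Nr4a1), against 4.05% of genes and 0 members in the E17R2 arrays. Small differences in the set of 5 are therefore to be read with caution, and the origin of the shared values was not tested.

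**Figure D3:**
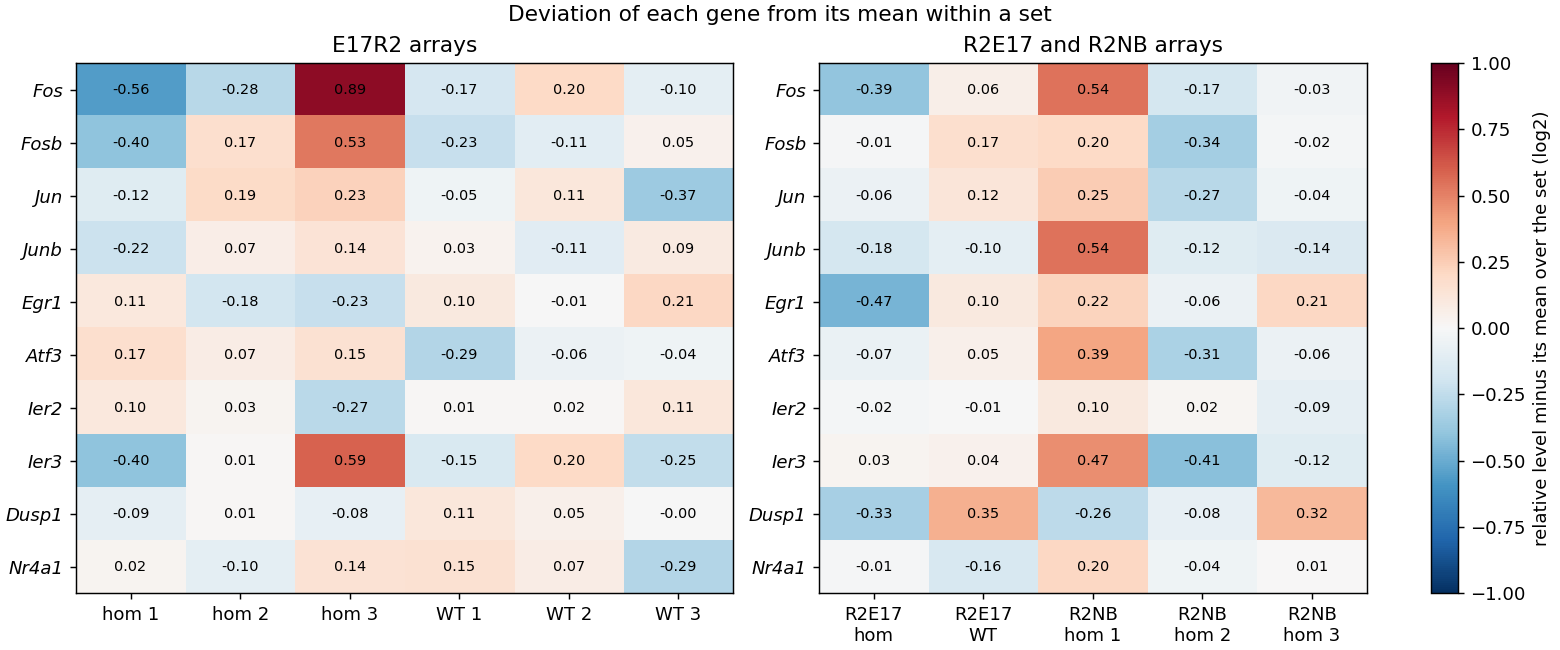
Deviation of each gene's relative level from its mean over the set (log2, colour and printed numbers) for the 6 E17R2 arrays (left) and the 5 R2E17 and R2NB arrays (right). In the right panel the column of R2NB replicate 1 is positive for 9 of 10 genes, and in the left panel homozygous replicate 3 is high for Fos and Ier3 and low for Egr1 and Ier2.

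Co-variation of the 10 genes was not alike in the 2 sets of arrays, a contrast that was not tested. Over the 6 E17R2 arrays, 22 of the 45 pairs of members had a positive Pearson correlation, and the median correlation was -0.00025. Over the set of 5 arrays, 36 of the 45 pairs were positive (40 on the scale of relative levels), but 20 were without R2NB replicate 1, and 5 arrays are too few to give coefficients. On the log2 intensity scale, homozygous replicate 3 was the highest array for 3 members (Fos, Fosb and Ier3), against 20.7% of all genes. It was the lowest for 3 (Egr1, Ier2 and Dusp1), against 32.4% of all genes. Both counts are close to those backgrounds. Wild-type replicate 3 was also the highest for 3 (Junb, Egr1 and Ier2), against 24.2% of all genes. Homozygous replicate 1 was the lowest for 4 (Fos, Fosb, Junb and Ier3), against 11.6%. On the scale of relative levels homozygous replicate 3 was the highest for 5, with Jun and Junb added, and the lowest for 2, Egr1 and Ier2. It had the lowest array median of the E17R2 arrays, which raises every relative level on it. The shares of all genes on that scale are not given here, so these counts have no background. Fos and Ier3 had the highest correlation (Pearson r = 0.93, exact permutation p = 0.0167; Spearman rho = 0.77, exact permutation p = 0.103; n = 6 arrays), with Benjamini-Hochberg adjusted p values of 0.375 and 0.681 over the 45 pairs. Leaving out the 2 arrays farthest from the Fos median gave r = 0.68, and leaving out homozygous replicate 3 alone gave 0.83. Jun and Egr1 ran opposite (Pearson r = -0.83, exact permutation p = 0.0083; Spearman rho = -0.94, exact permutation p = 0.0167; n = 6 arrays), with adjusted values of 0.375 and 0.681, and r was -0.68 without the 2 arrays farthest from the Jun median. Fos and Egr1, which are both targets of serum response factor, had r = -0.58 (exact permutation p = 0.256; n = 6 arrays), and 0.33 after the 2 arrays farthest from the Fos median were left out, so that relation rested on those arrays. Of the 45 pairs, 2 had an unadjusted Pearson p under 0.05 and 0 passed after adjustment. These arrays share a normalization, and the pairs share arrays, so pairs are not independent.

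**Figure D4:**
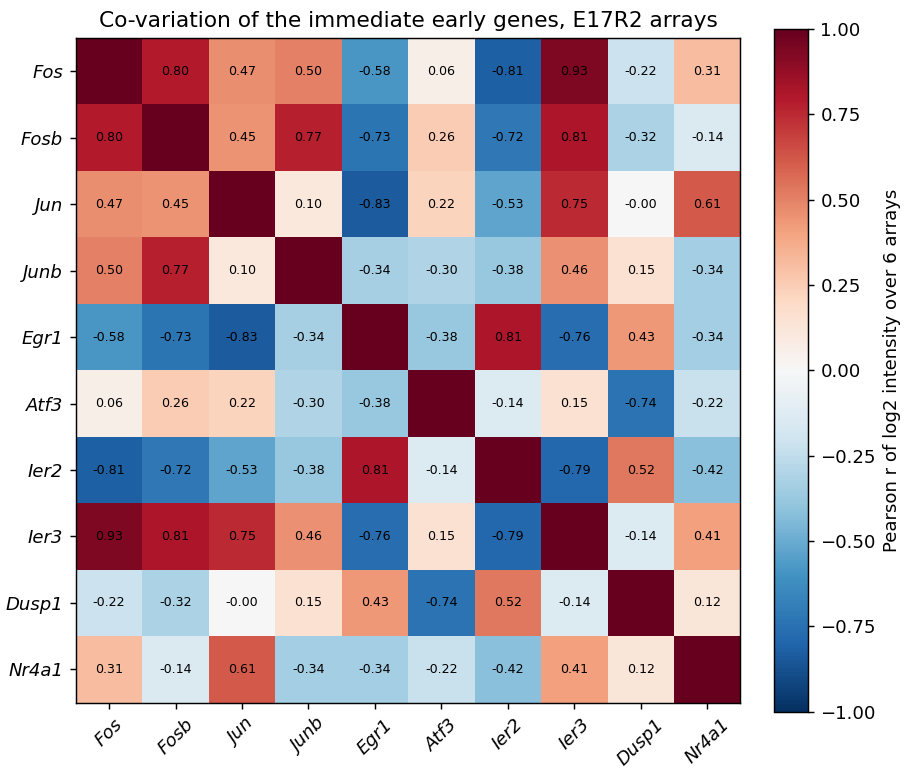
Pearson correlation between every 2 members of log2 intensity over the 6 E17R2 arrays (colour and printed numbers, from -1 to 1). Fos, Fosb and Ier3 form the block of values from 0.80 to 0.93, and Egr1 and Ier2 have negative values with all 3.

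The wider class was described by a list of 64 further genes. Of these, 35 had a higher and 29 a lower mean in homozygous than in wild-type E17R2 arrays, with a median difference of 0.02, and 0 passed the limma test. At an unadjusted p under 0.05, 0 rose and 1 of the 64 was lower, Gadd45a, a growth arrest and DNA damage gene. Its log2 intensities were 6.90, 6.94 and 6.35 in homozygous and 7.19, 7.33 and 7.01 in wild-type arrays, a difference of -0.45 ± 0.18 (SE; limma adjusted p = 0.840), and the homozygous arrays lay below all wild-type arrays. The next smallest p values belonged to Sgk1, a glucocorticoid-induced kinase (-0.27), Dusp4, a nuclear MAP kinase phosphatase (-0.34), and Egr3, a paralog of Egr1 (0.31). In the R2E17 pair Gadd45a and Dusp4 had the other sign (0.14 and 0.12), Sgk1 the same sign (-0.56) and Egr3 the other (-0.11). Homozygous replicate 3 was the highest array for 19 of the 64 genes, or 29.7%, against 20.7% of all genes.

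Neighbouring gene groups were described in the same way. Of 16 heat shock and stress genes, 9 were higher and 7 lower in homozygous E17R2 arrays (median 0.02), and 0 passed the limma test. Hspa1b, an inducible heat shock protein gene chosen after its values were seen, read 8.28, 7.97 and 9.69 in homozygous and 8.43, 8.25 and 7.43 in wild-type arrays on the log2 scale. Its highest array was homozygous replicate 3, as for 7 of the 16 genes, against 20.7% of all genes. Hspa8, Hsph1, Dnaja1, Hspd1 and Hspe1 were lowest on that array. The median deviation of the 16 relative levels from their means over the 6 arrays was -0.004 there. Hmox1, the inducible heme oxygenase, had 5.26 ± 0.07 in homozygous and 5.85 ± 0.33 in wild-type arrays (n = 3 each, SD), a difference of -0.59 ± 0.17 (SE; limma adjusted p = 0.840). Of 16 measured genes upstream of the response, the kinases, ternary complex factors and CREB-family genes, 9 were higher and 7 lower (median 0.01). Of 14 measured AP-1 targets and partners, 8 were higher and 6 lower (median 0.06), among them the urokinase gene Plau, which differed by -0.58 ± 0.17 (SE). Of 14 hypoxia genes, 9 were higher and 5 lower, and Ndrg1, a hypoxia-induced gene, differed by -0.45 ± 0.11 (SE). Homozygous replicate 3, the array high in smooth muscle markers, was the highest for 10 of the 14, against 20.7% of all genes. All genes of these groups had a limma adjusted p of at least 0.840.

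The 8 other genes whose pattern over the 6 E17R2 arrays was most like the mean of the 10 members were Prkg1, Fxyd3, Pfkp, Aifm2, Tspan2, Tmem70, Ccdc107 and Actg2. They came from 294 genes above the median gene in level with an SD of at least 0.5 over the 6 arrays, and their Pearson r ran from 0.81 to 0.88 (n = 6 arrays, a description). Each was highest in homozygous replicate 3, for example Prkg1, a cGMP-dependent protein kinase of smooth muscle, with log2 intensities of 7.21, 7.75 and 8.75 in homozygous and 7.59, 7.70 and 7.50 in wild-type arrays. The members' mean was itself highest on that array, with a deviation of 0.16. The choice of genes therefore favoured those high there, and their order is not a separate result. In the other 5 arrays 4 of the 8 had a positive r with the members' mean, and the other 4 had a negative one.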

How the data were processed

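The authors deposited a table of linear intensity values per probe set, and the submitters' processing notes name RMA, without a version. Log2 of each intensity was taken, with no pseudocount. Of 45101 probe sets, 64 controls were set aside, 34945 had 1 gene symbol in the platform annotation, 932 had several and 9160 were unnamed. Symbols were updated through Entrez identifiers (34741 matched a GRCm38.p6 gene table). The members and lists were chosen with earlier results of these data known. Tests were run in R 4.3.3 with limma 3.58.1 (2-sided moderated fits, Benjamini-Hochberg over 18193 genes, threshold 0.05) on the 6 E17R2 arrays, which were numbered in accession order within a group, and exact permutation tests for pairs of genes, whose p-values were added to a description planned without them. The limma step was tested on simulated data. The interaction contrast used all 11 arrays. Named genes were the members, the 4 smallest p of a list, and the 8 most alike genes. Fits with 8 or 11 arrays, other normalizations, filters, probe set rules and left-out arrays were tried. The number of arrays limits the precision. The per-array level scale was log2 minus the array median.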

Additional observations from a re-analysis of the deposited data

How the results depend on the processing

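No paired analysis was possible because the replicate numbers were given in accession order and the titles give the E17R2 genotypes no shared numbers. The alternative fits called 0 genes past the threshold, except for 1 gene without wild-type replicate 3. None of the 10 members passed under any of them. Besides those of Fos and Atf3 given above, limma unadjusted p values under 0.05 included those of 3 further members. Egr1 had 0.0253 with 8 arrays, 0.0221 with 11 arrays and 0.0197 without homozygous replicate 1. Dusp1 had 0.0348 with 8 arrays, and Fosb had 0.0341 without homozygous replicate 1. With 1 array left out, the count past the threshold ran from 0 to 1, the count at an unadjusted p under 0.05 from 647 to 1313, the number of members higher in homozygous arrays from 2 to 7, the same number of the other immediate early genes from 28 to 38, the members' median difference from -0.068 to 0.13 and the median correlation between members from -0.16 to 0.055. The count at an unadjusted p under 0.05, 1019 in the reported fit, was 574 among genes above the median gene, which are fewer, and 1774 over all named probe sets, which are more. Of the other immediate early genes, 21 of 45 were higher under the first of these filters. It also removed Fosb, Junb and Atf3. Fos differed by -0.079 with 8 or with 11 arrays and a term for the title series. With 1 array left out, Fos ran from -0.41 to 0.29, Fosb from -0.040 to 0.40, Junb from -0.10 to 0.061, Ier3 from -0.15 to 0.33 and Nr4a1 from -0.13 to 0.083, and the other 5 members kept their sign. In the R2E17 pair, averaging both Jun probe sets gave -0.34, and centring on the array medians gave -0.69 for Dusp1. Chosen after seeing the data, leaving out R2NB replicate 1 left at most 4 of 10 members highest in any 1 of the remaining 4 arrays and 20 of 45 pairs of members positive, where 36 were with it. The cause of these changes was not tested beyond the numbers of genes and arrays named here.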
